A study of Mus musculus with 12 samples.

Results

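10 genes of cytotoxic lymphocytes, of the 21936 genes measured, were followed through 12 libraries of mouse eyelid tissue. They were picked by symbol as Gzma, Gzmb, Prf1, Nkg7, Ctsw, Klrd1, Klrk1, Ncr1, Il2rb and Eomes, and the choice was made knowing how they differ between the diets. Their differences between diets are therefore given as a description, with no p-value for any single one of them, and counts of calls stand beside the share over all genes and support nothing. Lists of other genes, set beside the members below, were also chosen with earlier results of these data known. Their counts and p-values are a description too. The mice were male C57BL/6, 6 to 8 weeks old at the start, adapted for 1 week and kept in 12 h of light and 12 h of dark. The high-fat group (HF) ate a diet with 60 kcal% fat and the control group (CTL) a standard-fat diet with 10 kcal% fat, for 3 months per the sample labels and 4 months per the series text. Tissue was taken at 9h, 15h and 21h, with 2 libraries for each diet and time. By the labels the tissue is meibomian gland, the oil gland of the lid margin; by the series text it is the entire upper and lower eyelid. It is not stated if each library came from a single mouse, so the p-values speak only of library to library spread, which may be technical.

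Cytotoxic lymphocytes are CD8 T cells, natural killer (NK) cells and their relatives. They kill a target by releasing granules that hold perforin, which opens the target's membrane, and granzymes, which are serine proteases that enter and start cell death. Surface receptors of the NK type read stress ligands and MHC class I on the target, and interleukin 15, received through the chain encoded by Il2rb, keeps these cells alive in tissues such as skin and conjunctiva. In bulk tissue, fewer such cells and less RNA per cell cannot be told apart.

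Levels are in FPKM, reads per kilobase of exon scaled to the depth of the library, from the authors' deposited table. The steps between values gave 14096365 to 17889158 reads per library. Summed meibocyte markers, such as Scd1 and Soat1, lay at 5357 to 8408 FPKM in HF and 4815 to 7298 FPKM in CTL, and skeletal muscle markers at 2325 to 6347 FPKM in HF and 2343 to 5865 FPKM in CTL, so both tissues were in every library. Libraries that stood apart were HF 15h library 6 and HF 21h library 6, with immediate early genes summing to 867 and 1094 FPKM, against 309 to 547 FPKM in the other HF and 301 to 378 FPKM in the CTL libraries. Neutrophil markers summed to 137 FPKM in HF 15h library 6, and to 226 and 406 FPKM in CTL 9h library 2 and CTL 21h library 1, against 36.0 to 58.2 FPKM elsewhere.

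Among the granule genes, Gzma and Gzmb had the largest ratios of CTL to HF means of the 10 members. Gzma encodes granzyme A, a protease that cuts after basic residues (ENSMUSG00000023132, GRCm38 chromosome 13, 113093825 to 113100981, minus strand). At 9h, Gzma was at 0.627 and 1.28 FPKM in HF libraries 6 and 7, against 14.5 and 12.8 FPKM in CTL libraries 2 and 3. At 15h, Gzma was at 4.48 and 0.267 FPKM in HF libraries 2 and 6, against 8.31 and 21.4 FPKM in CTL libraries 2 and 3. At 21h, Gzma was at 0.635 and 4.48 FPKM in HF libraries 3 and 6, against 22.4 and 11 FPKM in CTL libraries 1 and 2. Every HF library was below every CTL library, and the HF libraries fell into 2 at 4.48 FPKM and 4 at or under 1.28 FPKM. These levels rest on 4 to 75 reads per HF library and 130 to 340 reads per CTL library. Gzma averaged 1.96 ± 1.98 FPKM in HF and 15.1 ± 5.67 FPKM in CTL (SD, n = 6 each), a CTL mean 7.68 times the HF mean. On the log2(FPKM + 1) scale, where low genes show less of their change, the difference averaged over the 3 times was -2.62 ± 0.43 (SE).

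Gzmb encodes granzyme B, which cuts after aspartate and can activate caspases (ENSMUSG00000015437, GRCm38 chromosome 14, 56258838 to 56262260, minus strand). At 9h, Gzmb was at 0.359 and 0.725 FPKM in HF, against 4.31 and 4.05 FPKM in CTL. At 15h, Gzmb was at 1.68 and 0.608 FPKM in HF, against 5.02 and 10.1 FPKM in CTL. At 21h, Gzmb was at 0.247 and 2.01 FPKM in HF, against 7.44 and 4.74 FPKM in CTL. The diets did not overlap, and the highest HF libraries were the same as for Gzma, HF 15h library 2 and HF 21h library 6. Gzmb averaged 0.938 ± 0.731 FPKM in HF and 5.95 ± 2.38 FPKM in CTL (SD, n = 6 each), a log2 difference of -1.86 ± 0.25 (SE).

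Nkg7 encodes a granule membrane protein needed for full degranulation (ENSMUSG00000004612, GRCm38 chromosome 7, 43437073 to 43438249, plus strand). At 9h, Nkg7 was at 1.00 and 0.804 FPKM in HF, against 6.70 and 4.40 FPKM in CTL. At 15h, Nkg7 was at 2.43 and 0.587 FPKM in HF, against 3.80 and 10.2 FPKM in CTL. At 21h, Nkg7 was at 2.02 and 1.58 FPKM in HF, against 10.4 and 6.07 FPKM in CTL. Here too no HF library reached the lowest CTL library, CTL 15h library 2. Nkg7 averaged 1.40 ± 0.727 FPKM in HF and 6.92 ± 2.80 FPKM in CTL (SD, n = 6 each), a log2 difference of -1.70 ± 0.26 (SE).

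Ctsw encodes cathepsin W, a cysteine protease found mainly in NK and CD8 T cells (ENSMUSG00000024910, GRCm38 chromosome 19, 5465043 to 5468507, minus strand). At 9h, Ctsw was at 1.40 and 0.876 FPKM in HF, against 3.37 and 2.49 FPKM in CTL. At 15h, Ctsw was at 1.90 and 0.533 FPKM in HF, against 2.39 and 5.73 FPKM in CTL. At 21h, Ctsw was at 1.43 and 1.24 FPKM in HF, against 3.99 and 4.27 FPKM in CTL. The diets did not overlap, with HF 15h library 2 closest to CTL. Ctsw averaged 1.23 ± 0.475 FPKM in HF and 3.71 ± 1.25 FPKM in CTL (SD, n = 6 each), a log2 difference of -1.06 ± 0.20 (SE). Its last exon overlaps the gene Fibp on the other strand, and the labels do not state if counting used strand.

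Prf1 encodes perforin, the pore former (ENSMUSG00000037202, GRCm38 chromosome 10, 61297833 to 61304680, plus strand). It stayed under 1 FPKM in every library and was not tested. Prf1 averaged 0.246 ± 0.111 FPKM in HF and 0.536 ± 0.184 FPKM in CTL (SD, n = 6 each), with 3 to 13 reads per HF library and 13 to 32 reads per CTL library. The diets overlapped at 15h, where HF libraries were at 0.328 and 0.0779 FPKM and CTL libraries at 0.324 and 0.784 FPKM. At 9h and 21h both HF libraries were below both CTL libraries.

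**Figure D1:**
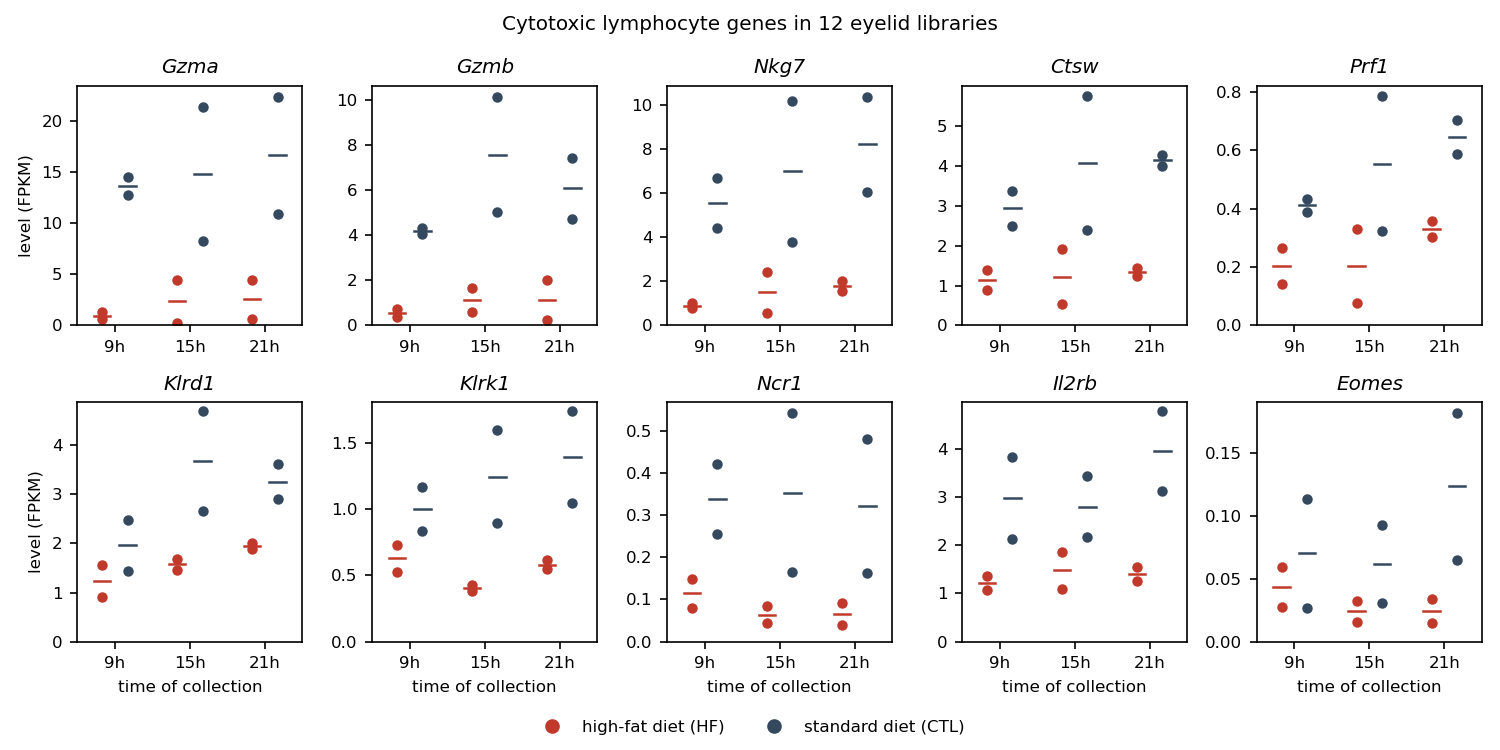
Level in FPKM (linear axis from 0, a scale of its own in each panel) of the 10 genes by time of collection; points are libraries, bars are means of 2 libraries, HF left of CTL. Gzma, Gzmb, Nkg7 and Ctsw show no overlap between diets, and the HF libraries of Gzma split into 2 at 4.48 FPKM and 4 at or under 1.28 FPKM.

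Promoters of 4 granule genes are shown. The mean of each was lower in HF than in CTL at all 3 times, which also held for every other member. RefSeq entries (GRCm38.p6) were at hand for 7 of the 10 members, and the 250 bases before the start of 4 of them follow, 5′ to 3′ on the gene's strand. Capitals mark matches, on either strand, to AGGTGTGA (T-box factors), TGTGGTT (Runx factors), TTCNNNGAA (STAT factors) or the interferon response element. No marked matches overlap.
Gzma, chr13:113100982-113101231, minus strand: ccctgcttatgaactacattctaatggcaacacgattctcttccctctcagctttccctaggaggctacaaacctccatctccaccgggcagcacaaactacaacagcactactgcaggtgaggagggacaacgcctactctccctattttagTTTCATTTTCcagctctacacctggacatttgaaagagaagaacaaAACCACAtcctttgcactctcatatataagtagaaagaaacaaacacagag
Gzmb, chr14:56262335-56262584, minus strand: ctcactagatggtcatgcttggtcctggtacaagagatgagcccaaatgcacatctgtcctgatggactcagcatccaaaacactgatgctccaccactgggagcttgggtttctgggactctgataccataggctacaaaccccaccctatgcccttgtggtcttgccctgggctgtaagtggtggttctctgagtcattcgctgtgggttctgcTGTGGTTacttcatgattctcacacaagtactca
Nkg7, chr7:43436888-43437137, plus strand: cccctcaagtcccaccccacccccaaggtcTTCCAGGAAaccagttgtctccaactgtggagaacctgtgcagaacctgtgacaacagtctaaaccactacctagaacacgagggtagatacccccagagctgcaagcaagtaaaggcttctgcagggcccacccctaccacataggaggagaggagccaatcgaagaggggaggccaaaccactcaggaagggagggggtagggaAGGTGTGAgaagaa
Prf1, chr10:61297586-61297835, plus strand: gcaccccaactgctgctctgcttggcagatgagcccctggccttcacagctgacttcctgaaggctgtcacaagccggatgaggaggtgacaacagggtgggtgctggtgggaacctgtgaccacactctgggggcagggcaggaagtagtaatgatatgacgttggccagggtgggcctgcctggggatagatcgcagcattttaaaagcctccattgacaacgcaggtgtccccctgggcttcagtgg
Gzma held a Runx match with its first base 51 bases before the start and an interferon response match at 97 bases. Gzmb held a Runx match at 34 bases. Nkg7 held the T-box match, at 14 bases, and a STAT match at 220 bases, and Prf1 held none. Runx letters were in 5 of the 8 windows of the 7 genes, against 4.40% of all 32841 RefSeq windows of this length. Those windows belong to 4 genes (Gzma, Gzmb, Klrk1 and Ncr1), and the overlapping windows of Ncr1 share a match. The T-box letters were in 1.12%, the STAT letters in 7.02% and the interferon response letters in 2.98% of all windows, and Eomes was the other member with an interferon response match. These are matches of letters only.

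The NK-type receptors averaged under 3 FPKM in both diets. Klrd1 encodes CD94, which pairs with NKG2 chains to read the MHC molecule Qa-1 (ENSMUSG00000030165, GRCm38 chromosome 6, 129591782 to 129598775, plus strand). At 9h, Klrd1 was at 1.57 and 0.908 FPKM in HF, against 2.48 and 1.44 FPKM in CTL. At 15h, Klrd1 was at 1.68 and 1.47 FPKM in HF, against 2.66 and 4.69 FPKM in CTL. At 21h, Klrd1 was at 1.88 and 2.02 FPKM in HF, against 3.62 and 2.90 FPKM in CTL. It was the only one of the 7 members above the filter whose diets overlapped, because CTL 9h library 3 lay within the HF range. Klrd1 averaged 1.59 ± 0.389 FPKM in HF and 2.97 ± 1.10 FPKM in CTL (SD, n = 6 each), a log2 difference of -0.58 ± 0.14 (SE).

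Klrk1 encodes NKG2D, the activating receptor for stress ligands (ENSMUSG00000030149, GRCm38 chromosome 6, 129610323 to 129623864, minus strand). It lay between 0.383 and 0.727 FPKM in the 6 HF libraries, with a median of 0.536 FPKM, and between 0.833 and 1.74 FPKM in the 6 CTL libraries, with a median of 1.10 FPKM. The diets did not overlap, and Klrk1 passed the filter on low values only through 4 CTL libraries. It averaged 0.537 ± 0.125 FPKM in HF and 1.21 ± 0.374 FPKM in CTL (SD, n = 6 each), a log2 difference of -0.51 ± 0.11 (SE).

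Ncr1 encodes NKp46, a receptor that marks NK cells and some innate lymphoid cells (ENSMUSG00000062524, GRCm38 chromosome 7, 4337724 to 4345164, plus strand). It had 1 to 4 reads per HF library and 4 to 13 reads per CTL library. Ncr1 averaged 0.0813 ± 0.0398 FPKM in HF and 0.338 ± 0.165 FPKM in CTL (SD, n = 6 each), without overlap in FPKM but with 4 reads in HF 9h library 6 as well as in 2 CTL libraries. It was below the filter and was not tested.

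Il2rb encodes the beta chain shared by the receptors for interleukins 2 and 15 (ENSMUSG00000068227, GRCm38 chromosome 15, 78479256 to 78495271, minus strand). At 9h, Il2rb was at 1.36 and 1.07 FPKM in HF, against 3.83 and 2.13 FPKM in CTL. At 15h, Il2rb was at 1.10 and 1.86 FPKM in HF, against 2.18 and 3.42 FPKM in CTL. At 21h, Il2rb was at 1.26 and 1.54 FPKM in HF, against 4.78 and 3.13 FPKM in CTL. The diets did not overlap, and its order among HF libraries was not that of the granzymes: HF 15h library 6 was highest for Il2rb and lowest for Gzma. Il2rb averaged 1.37 ± 0.300 FPKM in HF and 3.24 ± 1.01 FPKM in CTL (SD, n = 6 each), a log2 difference of -0.82 ± 0.15 (SE).

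Eomes encodes a T-box factor of NK and memory CD8 T cells (ENSMUSG00000032446, GRCm38 chromosome 9, 118478212 to 118486132, plus strand). It averaged 0.0305 ± 0.0162 FPKM in HF and 0.0850 ± 0.0584 FPKM in CTL (SD, n = 6 each), on 1 to 4 reads per HF library and 2 to 12 reads per CTL library. The diets overlapped and Eomes was not tested.

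Of the 10 members, 7 passed the filter (above 1 FPKM in at least 2 libraries) and were in the model fitted to all 13228 such genes. In 6 of those 7 every HF library was below every CTL library, which held for 1.86% of all tested genes. Klrk1, among the 6, passed the filter through CTL libraries alone. With Ncr1, which was not tested and so lies outside that share, the count was 7 of the 10. The members were chosen with this contrast known, so these counts are a description. The same 6 of 7 counted when each HF library was set only against the 2 CTL libraries of its own time, against 3.54% of all tested genes. The averaged diet difference of 5 of the 7 tested members had an adjusted p under 0.05 in limma, where 1.78% of tested genes were called lower. Since this contrast was known when the members were chosen, nothing is read from that count. The count depends on single libraries: of those 5, 2 were called without CTL 9h library 2, CTL 15h library 3 or CTL 21h library 1, and 3 without HF 9h library 7, HF 21h library 3 or HF 21h library 6. Without the 2 HF libraries high in immediate early genes, 3 were called. The median difference of the 7 was -1.06, beside -0.01 over all tested genes. At single times no member had an adjusted p under 0.05, where 0.0% of genes were called at 9h, 0.0605% at 15h and 0.00756% at 21h. Unadjusted p-values were under 0.05 for 5, 7 and 6 of the 7 at those times, against 7.22%, 11.6% and 5.37% of all tested genes. These contrasts too were known when the members were chosen, so the counts support nothing. Limma-voom on the recovered reads called no gene at any of the 3 times.

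**Figure D2:**
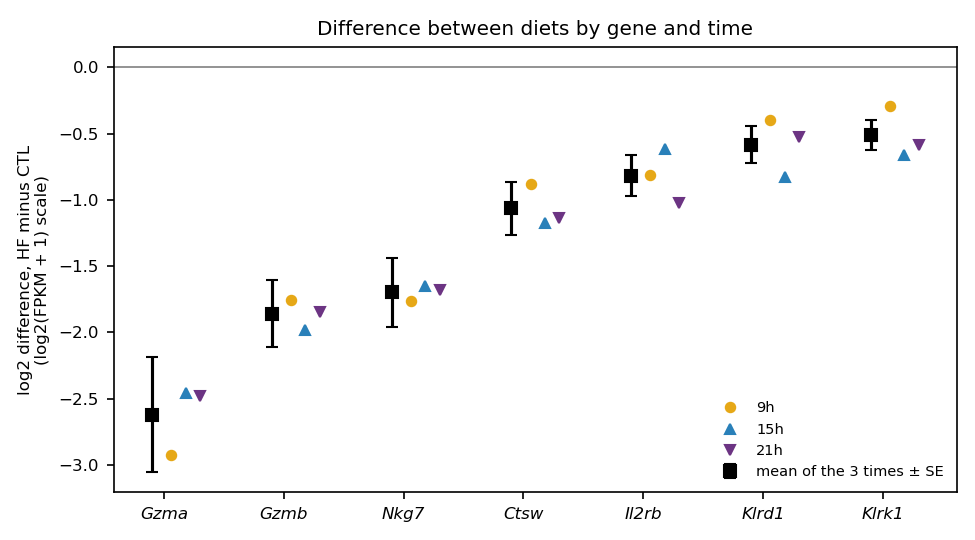
Difference of HF minus CTL on the log2(FPKM + 1) scale for the 7 genes above the filter; squares with bars are the mean over 3 times ± SE, and small symbols are the single times. All points lie below 0, with Gzma lowest at -2.62 and Klrk1 nearest 0 at -0.51 for the mean over times. Low genes show less of their change on this scale: the CTL mean was 2.26 times the HF mean for Klrk1 and 1.87 times for Klrd1.

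Within the HF group the members did not share 1 order. Gzma differed 16.8-fold and Gzmb 8.14-fold between the lowest and highest HF library, while Il2rb differed 1.74-fold and Klrk1 1.90-fold. In CTL the spread was closer, at 2.69-fold for Gzma, 2.5-fold for Gzmb, 2.25-fold for Il2rb and 2.09-fold for Klrk1. HF 15h library 6 was the lowest HF library in 5 of the 10 members, and CTL 15h library 3 and CTL 21h library 1 were the highest CTL libraries in 4 members each. Gzma made up 17.4 ± 12.5% of the summed FPKM of the 10 members in HF and 37.4 ± 4.91% in CTL (SD, n = 6 each). That share reached 31.7% and 32.5% in HF 15h library 2 and HF 21h library 6, next to the lowest CTL share of 31.7%, and was 4.55% to 19.8% in the other 4 HF libraries.

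The same 2 HF libraries stood out for the CD8 co-receptor. Cd8a was at 1.97 and 1.34 FPKM in HF 15h library 2 and HF 21h library 6, at 0.295 to 0.394 FPKM in the other 4 HF libraries, and at 2.51 to 6.08 FPKM in CTL. Markers of B and plasma cells were also highest there among the HF libraries, summing to 55.6 and 157 FPKM, against 18.7 to 39.2 FPKM in the other 4 HF libraries and 21.2 to 111 FPKM in CTL. Macrophage markers summed to 369 FPKM in HF 15h library 2, the lowest of all libraries, and to 995 FPKM in HF 21h library 6. Within a library, the Gzmb level was 1.35 ± 0.612 times that of Cd8a in HF and 1.41 ± 0.408 times in CTL (SD, n = 6 each), and the diets overlapped. Gzma was 2.26 ± 1.05 times Cd8a in HF and 3.52 ± 0.840 times in CTL, again with overlap. Set against Cd3d, a chain of the T cell receptor complex in all T cells, Gzma was 1.28 ± 1.28 times in HF and 5.16 ± 1.34 times in CTL, with every HF library below every CTL library. Klrd1 behaved the other way: it was 0.983 ± 0.214 times Cd3d in HF and 1.00 ± 0.198 times in CTL, and 3.21 ± 1.85 times Cd8a in HF and 0.694 ± 0.198 times in CTL, with overlap in both. Cd8a itself was 0.501 ± 0.453 times Cd3d in HF and 1.48 ± 0.231 times in CTL, with HF 15h library 2 inside the CTL range. These ratios rest on the contrast used for the choice and carry no test, and they do not say which cells held the transcripts.

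**Figure D3:**
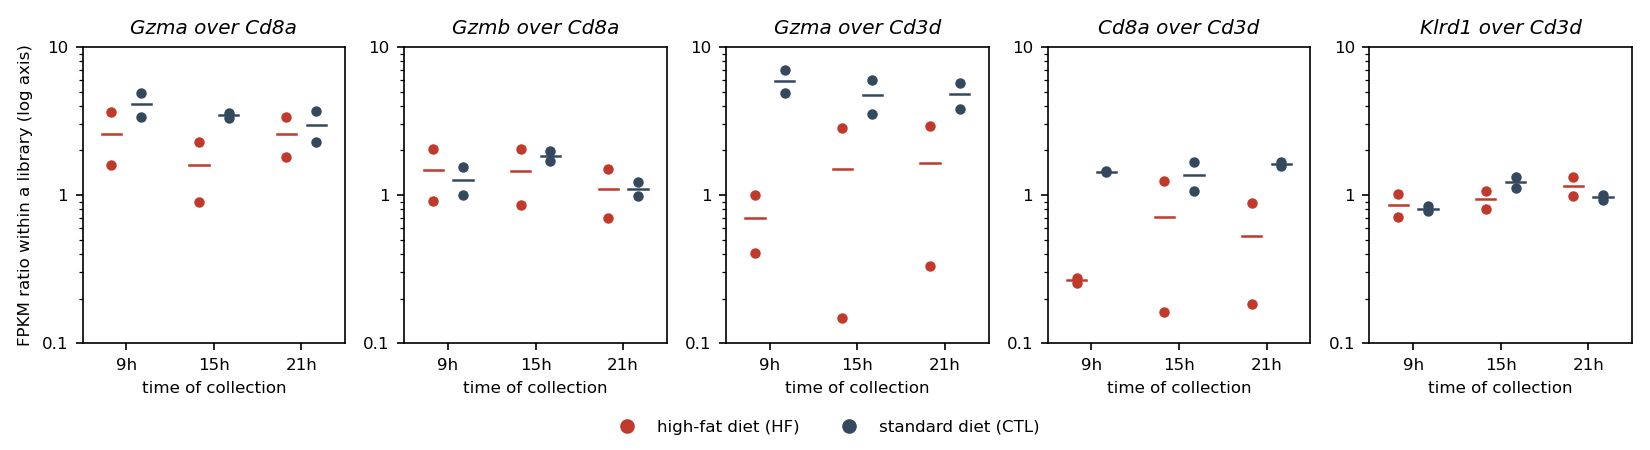
Ratio of FPKM values within each library (log axis) by time of collection; points are libraries, bars are arithmetic means of 2 libraries, HF left of CTL. HF and CTL overlap for Gzmb over Cd8a (0.704 to 2.06 in HF, 0.980 to 2 in CTL) and for Klrd1 over Cd3d, and do not overlap for Gzma over Cd3d.

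Markers of other cells moved beside the members. The lists here and below were chosen with earlier results of these data known, so their counts and p-values describe the listed genes and support nothing. The 15 measured T cell markers summed to 15.5 to 24.4 FPKM in HF and 29.3 to 56.6 FPKM in CTL, without overlap, and 6 of 14 tested were called lower by limma in the averaged diet comparison and none higher, against 1.78% lower and 0.204% higher over all tested genes. Cd8b1, the second CD8 chain, fell by 1.79 on the log2 scale (SE 0.24, adjusted p = 0.0052), with 0.826 ± 0.655 FPKM in HF and 5.14 ± 1.34 FPKM in CTL (SD, n = 6 each). Cd2, an adhesion receptor, fell by 0.83 (adjusted p = 0.00882), Cd8a by 1.62 (adjusted p = 0.0116), the kinase gene Lck by 0.83 (adjusted p = 0.0335), Cd5, above 1 FPKM only in CTL libraries, by 0.54 (adjusted p = 0.0395) and Cd3d by 0.57 (adjusted p = 0.0488). The summed members were 0.453 ± 0.142 times the summed T cell markers in HF and 0.928 ± 0.127 times in CTL (SD, n = 6 each), with no overlap. NK cell markers were near the detection limit: their sum was 1.17 to 2.01 FPKM in HF and 2.17 to 5.72 FPKM in CTL, only 2 of 11 were tested, Klrb1c never passed 0.239 FPKM, and 7 of the 11 were at 0 in some library. Ncr1 in this list is itself a member, and its other genes are also counted among the NK receptors below. Constant chains of the T cell receptor were not analysed here. No macrophage marker of 12, neutrophil marker of 5 or mast cell marker of 6 tested was called. Yet 11 of the 12 macrophage markers had negative differences, with a median of -0.53 beside -0.54 for the T cell list, and summed to 842 ± 271 FPKM in HF and 1153 ± 244 FPKM in CTL (SD, n = 6 each). Low genes show less of their change on the log2(FPKM + 1) scale, so these medians do not compare the size of the falls. The CTL mean of the summed markers was 2.08 times the HF mean for T cells, without overlap, and 1.37 times for macrophages, with overlap. All 5 tested B and plasma cell markers were negative, with a median of -0.58, and 1 of them was called, Cd79b, which was above 1 FPKM only in CTL libraries. The part of cell composition in the members' differences was not tested.

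Of the other genes of the cytotoxic granule and its effectors, 3 of 11 tested were called lower in HF by limma and none higher, against 1.78% of all tested genes called lower, with a median difference of -0.30 beside -0.01 over all genes. Markers of other tissues had medians of -0.29 (keratinocyte), -0.52 (lacrimal acini), -0.04 (skeletal muscle) and 0.24 (meibocyte). Tnfsf10, the death ligand TRAIL, fell by 0.78 (SE 0.12, adjusted p = 0.0104), with 9.09 ± 2.06 FPKM in HF and 16.2 ± 2.65 FPKM in CTL (SD, n = 6 each). Cst7, the inhibitor cystatin F of granule cathepsins, fell by 0.57 (adjusted p = 0.0391), and Rab27a, which docks granules, by 0.30 (adjusted p = 0.0496). With no filter on low values, only Tnfsf10 of these 3 was called. Gzmk, a granzyme of effector memory T cells below the filter, was at 0.0413 to 0.329 FPKM in HF and 0.602 to 1.55 FPKM in CTL, with no overlap. Gzmm, which encodes granzyme M, had another pattern: it was at 7.52 and 8.17 FPKM in HF 15h library 6 and HF 21h library 6, at 1.73 to 2.41 FPKM in the other 4 HF libraries, and at 1.60 to 3.24 FPKM in CTL. Those 2 libraries are the ones high in immediate early genes, and the averaged difference of Gzmm was 0.48 ± 0.30 (SE, adjusted p = 0.525). Gzmf and Gzmn are listed at 0 in all 12 libraries, and Gzmc to Gzmg are near copies whose reads the counting could have split.

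Among NK receptors and adaptors, 4 of 13 tested were called lower in HF and none higher, against 1.78% of all tested genes called lower, with a median difference of -0.48. Of these 4, Klra3 and Klrc1 were under 1 FPKM in every HF library and passed the filter through CTL libraries alone. With no filter on low values, 1 of the 4 was called. None of the 4 kept its call whichever library was left out. Klra3, an inhibitory Ly49 receptor with near copies in its cluster, was at 0.292 ± 0.186 FPKM in HF and 0.985 ± 0.0975 FPKM in CTL (SD, n = 6 each), and fell by 0.63 (adjusted p = 0.0232 in limma). Slamf7 fell by 0.61 (adjusted p = 0.0323), the inhibitory receptor gene Tigit by 0.62 (adjusted p = 0.0335), and Klrc1, the NKG2A chain that pairs with CD94, by 0.68 (adjusted p = 0.0468). Of their ligands, 1 of 5 tested was called, against the same 1.78%: H2-T23, which encodes the Qa-1 molecule read by CD94 with NKG2A, was at 60.3 ± 4.92 FPKM in HF and 99.2 ± 9.41 FPKM in CTL, and fell by 0.71 (SE 0.08, adjusted p = 0.00354).

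In the signalling list of interleukins 2, 15 and 12, 2 of 15 tested were called lower and none higher, against 1.78% of all tested genes called lower, with a median difference of -0.19. Il21r fell by 0.63 (adjusted p = 0.028 in limma), and Il2rg, the gamma chain that joins the Il2rb product, fell by 0.71 (adjusted p = 0.0309), at 1.91 ± 0.329 FPKM in HF and 3.92 ± 1.42 FPKM in CTL (SD, n = 6 each). Il15 was at 2.07 ± 0.522 FPKM in HF and 2.84 ± 0.510 FPKM in CTL and was not called (adjusted p = 0.113). Of 13 tested lymphocyte transcription factors none was called by limma, with a median difference of -0.09; the smallest p-values belonged to Nfil3 (0.65, adjusted p = 0.151), Runx3 (-0.28, adjusted p = 0.191) and Zbtb16 (0.39, adjusted p = 0.54). Tbx21, which encodes T-bet and was below the filter, was at 0.0787 to 0.342 FPKM in HF and 0.427 to 0.947 FPKM in CTL, with no overlap. Of 7 tested inhibitors of granzymes and cathepsins 1 was called lower, against 1.78% of all tested genes: Serpinb9, the inhibitor of granzyme B, fell by 0.69 (SE 0.12, adjusted p = 0.0221), at 3.12 ± 0.544 FPKM in HF and 5.66 ± 1.05 FPKM in CTL.

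Chemokines and homing receptors held the most called genes of the pathway lists, 5 of 10 lower and none higher, against 1.78% of all tested genes called lower, with a median difference of -0.85. Cxcr3, the receptor that draws effector T and NK cells to interferon-induced chemokines, was at 0.415 to 0.828 FPKM in HF and 1.84 to 3.25 FPKM in CTL, so it passed the filter through CTL libraries alone. It fell by 1.19 (SE 0.08, adjusted p = 0.000766 in limma), and also passed at 15h (-1.46, adjusted p = 0.0159) and at 21h (-1.30, adjusted p = 0.0429), though limma-voom called no gene at either time. Its ligand genes Cxcl10 and Cxcl9 fell by 1.75 (adjusted p = 0.0126) and 1.73 (adjusted p = 0.0265). Ccl5, a chemokine stored in cytotoxic T cells, fell by 2.12 (adjusted p = 0.00354), at 3.43 ± 1.69 FPKM in HF and 18.1 ± 5.48 FPKM in CTL (SD, n = 6 each). Cx3cr1 fell by 0.66 (adjusted p = 0.0174), while Cxcr6 was at 7.92 ± 1.67 FPKM in HF and 9.24 ± 2.90 FPKM in CTL (adjusted p = 0.757). The lists together held 24 called genes, counting Cd79b of B cells and Soat1 of meibocytes. Tnfsf10, H2-T23, Cxcr3, Ccl5, Cxcl10, Cd2 and Cd8b1 kept the call whichever of the 12 libraries was left out, and the other 17 lost it without at least 1 library. Without CTL 9h library 2, 7 of the 24 were called, without CTL 15h library 3 it was 8, and without CTL 21h library 1 or HF 21h library 3 it was 9. Without the 2 HF libraries high in immediate early genes, 11 were called. In 5 of the 24 (Cxcr3, Klra3, Klrc1, Cd5 and Cd79b) no HF library was above 1 FPKM. With no filter on low values 12 of the 24 were called, Cxcr3 (adjusted p = 0.00137 in limma) and Klra3 (adjusted p = 0.0262) among them but not Klrc1, Cd5 or Cd79b (adjusted p = 0.064, 0.0538 and 0.0562).

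**Figure D4:**
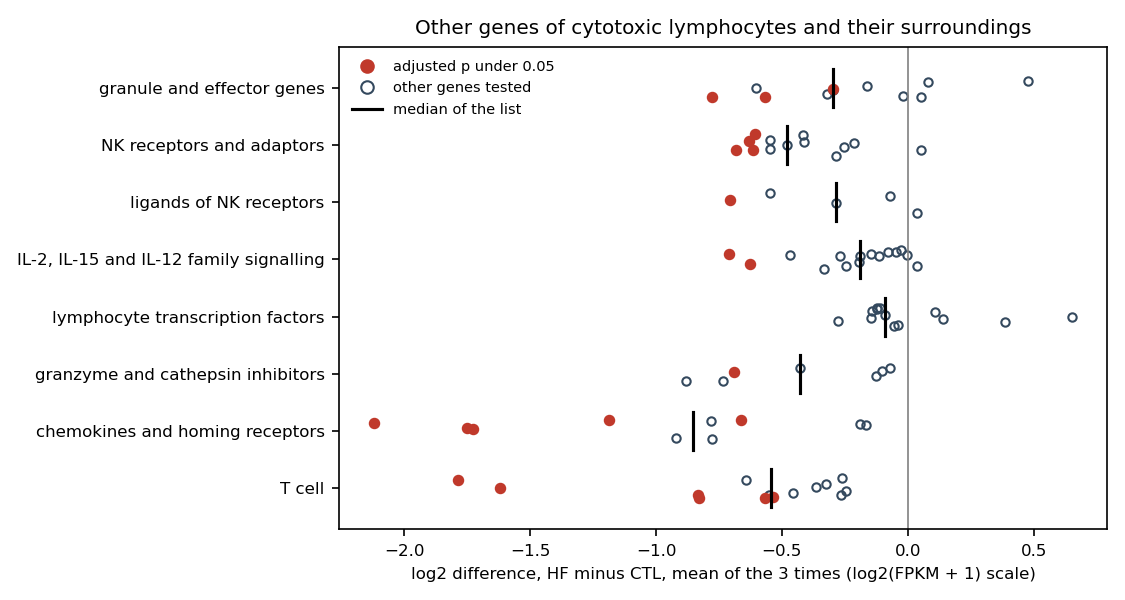
Difference of HF minus CTL averaged over times on the log2(FPKM + 1) scale for the tested genes of 8 lists; filled points have an adjusted p under 0.05 in limma, and vertical bars are list medians. Chemokines and homing receptors reach furthest left, to -2.12 for Ccl5, and lymphocyte transcription factors lie around 0.

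The choice of genes did not use the time of day, and no member passed a test between times. Across both diets, 21h minus 9h was positive for all 7 tested members, with a median of 0.38 beside 0.05 over all genes. None was called by limma, against 6.02% of all tested genes (2.59% higher at 21h and 3.43% lower), and 1 of 7 had an unadjusted p under 0.05, against 28.3% of all tested genes. That member was Klrd1, whose 21h libraries were above the 9h libraries within each diet: 1.88 and 2.02 FPKM at 21h, against 1.57 and 0.908 FPKM at 9h, in HF, and 3.62 and 2.90 FPKM at 21h, against 2.48 and 1.44 FPKM at 9h, in CTL. Its difference was 0.48 ± 0.17 (SE, adjusted p = 0.112), with adjusted p-values of 0.0515 to 0.302 when leaving out 1 library. Nkg7 differed by 0.51 ± 0.32 (SE) and Gzmb by 0.38 ± 0.31 (SE), both with adjusted p-values above the threshold. The Gzma difference of 0.41 ± 0.53 (SE) turned to -0.02 without HF 21h library 6, and that of Klrk1, 0.10 ± 0.14 (SE), to -0.00221 without CTL 21h library 1.

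At 15h minus 9h, Klrd1 differed by 0.43 ± 0.17 (SE, adjusted p = 0.184 in limma) and Gzmb by 0.55 ± 0.31 (SE, adjusted p = 0.319). No member was called, against 0.0227% of all genes (0.00756% higher at 15h and 0.0151% lower), and 1 of 7 had an unadjusted p under 0.05, against 23.2% of all genes. At 21h minus 15h no member and no gene was called, and no member had an unadjusted p under 0.05, against 4.45% of all genes. The F tests of time within a diet called no member in HF (0.0% of genes) or in CTL (0.0227% of genes). No member had an unadjusted p under 0.05 in them, against 8.73% of all genes in HF and 18.3% in CTL. The smallest p in CTL was that of Klrd1, 0.0552 before adjustment in limma. Limma-voom called no member in any comparison of times.

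**Figure D5:**
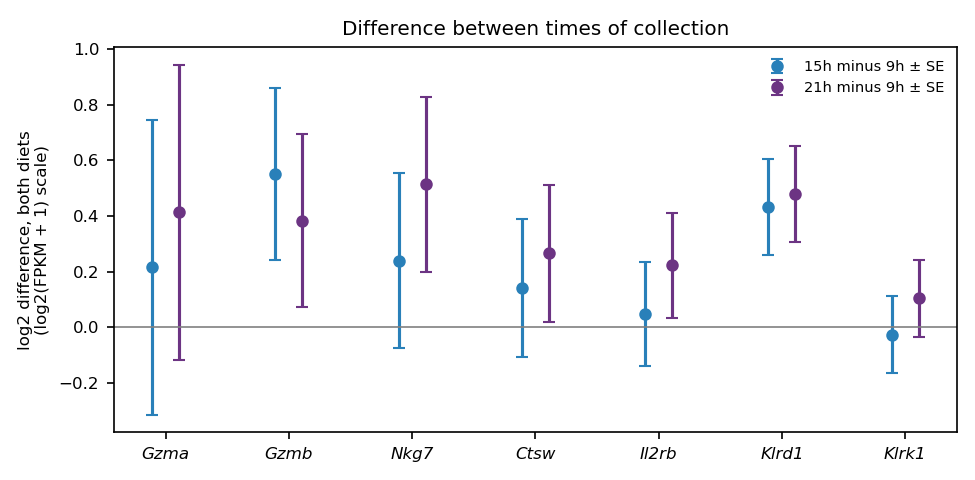
Difference between times over both diets on the log2(FPKM + 1) scale for the 7 genes above the filter, with bars of 1 SE; 15h minus 9h and 21h minus 9h are side by side. Klrd1, at 0.43 and 0.48, is the only gene more than 2 SE above 0 in either difference.

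Whether the difference between diets depended on time was tested by an interaction term. No member passed in limma, nor did any gene (0.0%), and unadjusted p-values of the 7 members lay between 0.414 and 0.984. Limma-voom called none as well, and 405 of the 13228 genes had an unadjusted p under 0.05. The HF to CTL ratio of means for Gzma was 0.0696 at 9h, 0.160 at 15h and 0.154 at 21h. For Gzmb the ratios were 0.130, 0.151 and 0.185, and for Klrd1 0.631, 0.428 and 0.598 in the same order of times. No dependence on time was detectable beyond the spread between libraries.

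The genes whose course over libraries was most like the members' were found by correlation with the mean standardized level of the 7 tested members, taken within each diet over its 6 libraries and ranked by the smaller r over 12833 genes. B2m, the light chain of MHC class I, had r = 0.958 in HF and 0.945 in CTL, at 1237 ± 233 FPKM in HF and 2733 ± 585 FPKM in CTL (SD, n = 6 each). H2-Q7 had 0.936 in HF and 0.972 in CTL, H2-Q6 0.962 in HF and 0.935 in CTL, and the peptide transporter gene Tap1 0.931 in HF and 0.943 in CTL. Cd226, an activating receptor of NK and T cells, had 0.978 in HF and 0.929 in CTL, and Irgm2 had 0.914 in HF and 0.912 in CTL. H2-Q6 and H2-Q7 are near copies. The points share library and depth, and these values describe 6 libraries per diet only. Among the members, Il2rb had r = -0.16 with that mean in HF and 0.841 in CTL, and Klrk1 0.112 in HF and 0.976 in CTL. Gzmb was at 0.664 in HF, and Gzma, Nkg7, Klrd1 and Ctsw were at 0.781 to 0.832 in HF. Each tested member is part of that mean, which raises its own r.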

How the data were processed

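Total RNA was extracted with Trizol and libraries were made with a NEBNext Ultra II kit, per the labels' protocols. HTSeq 0.9.1, DESeq 1.30.0, HISAT2 2.0.5 and the build mm9 are listed, with no roles, by the submitters' processing notes. The authors deposited FPKM values for 21936 genes; how FPKM came from counts, whether strand was used, and the annotation are not stated there. With merged exon lengths of GENCODE vM21 (GRCm38, the source of all gene positions), available for 21817 genes, 98.1% of nonzero values were whole reads within 0.02 reads, which gave the depth per library. 31 symbols occur more than once, none of them a member. Counting error is wide for members with under 20 reads.

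The members and the gene lists were chosen with earlier results of these data known. limma 3.58.1 (R 4.3.3) with a mean-dependent prior was fitted to log2(FPKM + 1) of 13228 genes above 1 FPKM in at least 2 libraries, with 6 group means and 6 residual degrees of freedom. P-values were adjusted by Benjamini-Hochberg over those genes, with 0.05 as the threshold for a call. 10 contrasts were made: diet averaged and at each time, time within each diet and between pairs of times, and their interaction. Named were the members, up to 6 called genes of each list (else the 3 with the smallest p), and 6 genes of like pattern; others (Gzmk, Gzmm, Tbx21, Il15 and Cxcr6 among them) were chosen after their values were seen. Alternatives were a pseudocount of 0.1, no filter, median-ratio scaling, limma-voom on recovered reads, the compared libraries alone, the library number as a block, each library left out, and, added after seeing the data, both HF libraries high in immediate early genes left out. The fit was tested on simulated data. The genes changed there were drawn from genes higher in every library than the lowest library of each member, so that test does not cover the members. Promoter sequences are RefSeq's.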

Additional observations from a re-analysis of the deposited data

How the results depend on the processing

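In the averaged diet comparison, 5 members were called. The count was 2 to 7 when each library was left out, 3 with no filter on low values, and 3 without HF 15h library 6 and HF 21h library 6 together, a setting chosen after seeing the data. At 9h, 3 members were called when the 4 libraries of that time were fitted alone, against 0 with all libraries; that fit called 47 of 12559 genes, 42 of them lower, against 0 genes, and the cause was not tested. The averaged difference of each of the 7 tested members was negative in every fit run. Over all genes the averaged comparison called 262 genes, and 143 to 294 with a library left out. The 21h minus 9h count of 796 genes moved between 4 and 3373 with a library left out, the lowest without CTL 9h library 3 and the highest without HF 9h library 6. The Gzma difference of 21h minus 9h turned to -0.0228 without HF 21h library 6, and also without both HF libraries numbered 6 at 15h and 21h, and ranged up to 0.850 with other libraries left out. That of Klrk1 turned to -0.0485 with the replicate block and to -0.00221 without CTL 21h library 1, and ranged up to 0.209.

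Library numbers recur across groups, and the main fit did not take them to pair libraries. In their deviations from the group means, 12 pairs of like-numbered libraries correlated at r = -0.50 to 0.29, with 3 over 0.1. With 2 libraries per group, the deviations within a group mirror each other, so these r cannot decide whether the numbers pair libraries. A replicate block of the number left 2 residual degrees of freedom and called 0 members and 0 genes in the averaged comparison.

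Prf1, Ncr1 and Eomes had at most 32, 13 and 12 reads in a library, so differences between single libraries were not resolved at this depth.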

Other observations

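Among genes outside the members, 2 of the pathway lists passed in 21h minus 9h over both diets. Of all tested genes, 6.02% were called there. The 2 were 1 of 13 tested lymphocyte transcription factors and 1 of 15 tested in the signalling list of interleukins 2, 15 and 12. The other pathway lists held none, and nothing about the lists is read from this count. Id2, a transcription regulator needed by NK cells, rose by 0.55 (adjusted p = 0.0498 in limma), and Stat5b, which carries interleukin 2 and 15 signals, fell by 0.32 (adjusted p = 0.039). In the same comparison 6 of 8 skeletal muscle markers fell, Atp2a1 by 1.60 and Ckm by 1.2 among them, and the mast cell protease gene Mcpt4 fell by 0.74. The number of genes called in that comparison depends strongly on single libraries, as given with the processing.

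Of the gamma delta T cell list only Sox13 and Cd163l1 were measured here, and their sum was 7.12 to 9.75 FPKM in HF and 6.82 to 7.56 FPKM in CTL, with neither gene called.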
